A study of Mus musculus with 2 samples.

Results

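Genes of the exocrine pancreas, 10 in number and most of them for digestive enzymes, were followed in RNA pools of mouse adipose tissue and liver. They are Try4, Ctrb1, Cela1, Cela2a, Cela3b, Cpa1, Pnlip, Clps, Cel and Sycn, and they were chosen by name from a list of pancreas genes, selected on that list's low diet ratios on the adipose array, as a gauge of pancreas RNA in the fat pools. All 10 had a probe, with 11 probes in all (2 for Clps), among 20886 genes on the arrays that were matched to a symbol through their RefSeq transcript accession. The animals were wild-type male C57BL/6J mice kept for 4 weeks on either a normal or a high-fat diet. The labels state that RNA of 10 livers and of 10 adipose tissue samples was combined within the diet groups, giving 4 pools. Each tissue was hybridised once, with the normal-diet pool in Cy3 and the high-fat pool in Cy5 on the same 2-colour array. The fat depot, the age of the mice and the number of animals in each pool are not given in the sources used here. With 1 array per tissue in a single dye orientation there is no p-value and no spread between animals, and a probe's dye effect and the diet cannot be told apart.

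The exocrine pancreas is made up mainly of acinar cells, which package digestive enzymes into zymogen granules and release them into the pancreatic duct when food arrives. Most of the proteases are made as inactive zymogens that trypsin activates in the gut lumen, and the lipases act there on dietary fat together with bile salts. Acinar cells hold these messenger RNAs at very high levels, and neither adipocytes nor hepatocytes are known as a main source of them. Transcription of many of these genes depends on PTF1, a complex of PTF1A with RBPJL or RBPJ and an E protein, which binds an E-box and a TC-box lying close together.

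The region just upstream of the start site was read for 9 of the 10 genes, from RefSeq sequences of build GRCm38.p6, as the 250 bases before the start. The motifs searched were the E-box with the letters CACCTG, the TC-box with the letters TTTCCC and the TATA box with the letters TATAAA, each on both strands. Their matches do not overlap one another in the promoters shown. The E-box was present in 5 of 9 promoters (Cel, Cela1, Cela2a, Cela3b and Try4), against 17.2% of all 32851 promoters of the same length. The TC-box was present in 5 of 9 (Cel, Cela1, Cela2a, Cpa1 and Ctrb1), against 21.9%, and both were present in 3 of 9 (Cel, Cela1 and Cela2a), against 3.61%. The count of both takes no account of the distance between them or of their strands. In Cela2a the E-box begins 218 and the TC-box 84 bases before the start site. In Cel the TC-box begins 86 and the nearest E-box 65 bases before it, with matches on opposite strands. Among 28 promoters of the other exocrine pancreas genes listed further down, 16 held the E-box, 3 the TC-box and 2 both. The TATA box was present in Cela1, Pnlip and Try4, against 12.4% of all promoters. A match of letters describes the sequence and does not show that a factor binds there. The promoters of 4 genes follow from 5' to 3' on the strand of the gene, with every match to the motifs in capitals. They are those of the 3 genes that hold both PTF1 motifs and that of Try4, which had the lowest diet ratio of the set; Cela1, with its E-box and TC-box 4 bases apart, had the highest.
Cela1, chr15:100687921-100688170, minus strand: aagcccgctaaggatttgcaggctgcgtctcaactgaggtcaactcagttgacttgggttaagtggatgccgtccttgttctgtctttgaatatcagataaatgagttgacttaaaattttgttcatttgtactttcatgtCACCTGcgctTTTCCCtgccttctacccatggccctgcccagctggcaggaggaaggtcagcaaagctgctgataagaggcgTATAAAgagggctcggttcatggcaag
Try4, chr6:41302022-41302271, plus strand: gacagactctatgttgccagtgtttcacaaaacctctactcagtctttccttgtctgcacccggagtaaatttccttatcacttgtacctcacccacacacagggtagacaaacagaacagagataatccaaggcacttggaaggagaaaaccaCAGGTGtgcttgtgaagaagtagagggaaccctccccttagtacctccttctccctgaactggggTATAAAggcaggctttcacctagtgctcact
Cel, chr2:28563404-28563653, minus strand: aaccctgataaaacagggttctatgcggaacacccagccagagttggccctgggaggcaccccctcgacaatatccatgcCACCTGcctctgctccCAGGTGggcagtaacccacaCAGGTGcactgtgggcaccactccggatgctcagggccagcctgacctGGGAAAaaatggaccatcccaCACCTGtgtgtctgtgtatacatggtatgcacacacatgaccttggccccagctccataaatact
Cela2a, chr4:141826006-141826255, minus strand: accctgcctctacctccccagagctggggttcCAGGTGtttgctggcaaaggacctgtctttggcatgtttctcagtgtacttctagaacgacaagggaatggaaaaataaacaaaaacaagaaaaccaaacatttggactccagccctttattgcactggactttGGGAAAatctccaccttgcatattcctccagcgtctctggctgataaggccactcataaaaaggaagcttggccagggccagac

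The precision of a ratio is limited by the number of arrays and by brightness over background. Both channels were well above background for 58.8% of 39427 probes on the adipose array and for 58.4% of 39418 on the liver array, so that ratios exist for 14315 and 13640 genes. Median spot signals for the normal and the high-fat diet were 97 and 274 on the adipose array and 93 and 127 on the liver array, so raw signals of the channels cannot be compared before normalization. The median scanner error of a gene, which is the software's own estimate for a log2 ratio, was 0.21 on either array. The tissue labels were checked against markers by their summed linear levels. The 16 adipocyte genes summed to 1263083 and 1150787 (normal and high-fat diet) on the adipose array and to 190631 and 317341 on the liver array, where 14 of them were also measured in both channels. The 20 hepatocyte genes summed to 1777952 and 2432382 on the liver array and to 387634 and 154430 on the adipose array, where all 20 were also measured. Each list was thus brighter in its own tissue. Most of the hepatocyte sums on the adipose array came from Trf (log2 levels 17.32 and 16.54) and Cyp2e1 (16.52 and 15.59). Genes of the hepatocyte list were thus read in the adipose pools, and the source of their transcripts was not tested. Each tissue has an array of its own, so array and tissue cannot be told apart. Every diet ratio is given as log2 of high fat over normal diet, so a negative value means less in the high-fat pool.

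In the adipose pools, 9 of the 10 pancreas genes were lower with the high-fat diet by at least 2-fold and 6 by at least 4-fold, led by the trypsinogen Try4 at -2.98 (7.87-fold lower). Among all genes measured on the same array, 5.13% passed 2-fold downward, 4.23% passed it upward and 2.16% passed 4-fold downward. The genes were chosen with these ratios known, so the count describes them and is no test. The median of the 10 was -2.19, beside -0.0073 for all 14315 genes. The exception was the elastase Cela1, at 0.09. All 9 lower ratios were more than 2 times the scanner error. The cells that gave these transcripts in the fat pools were not identified. In pools, a change in the number of such cells and a change in RNA per cell cannot be told apart.

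**Figure D1:**
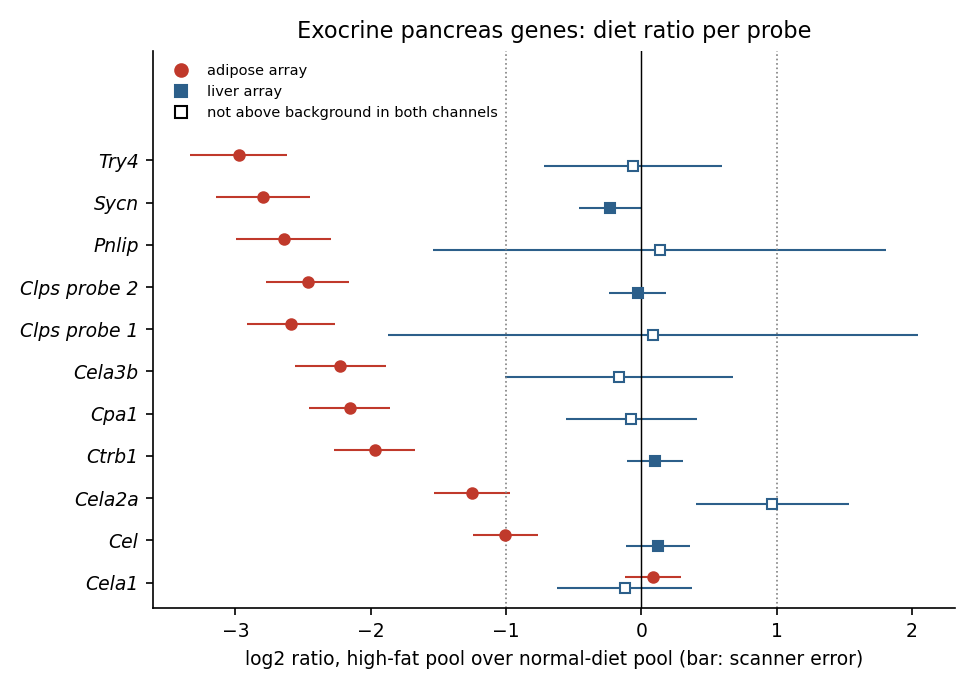
Log2 diet ratio, high fat over normal diet (x axis), for each probe of the 10 genes (rows) on the adipose array (red circles) and the liver array (blue squares); bars are the scanner software's error of the ratio, dotted lines mark 2-fold, and open symbols mark probes not well above background in both channels. The adipose ratios run from -2.98 for Try4 to 0.09 for Cela1, while the liver ratios of the 4 genes measured there lie between -0.23 and 0.13.

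Among the proteases, Try4 encodes a trypsinogen, a precursor of the enzyme that activates the other zymogens. Its probe had a median signal of 1705 in the normal-diet adipose pool and 1091 in the high-fat adipose pool, over local backgrounds of 28.5 and 52, and 71 and 66 in the liver pools, over 32 and 42. After normalization the log2 levels were 11.82 (normal diet) and 8.84 (high fat) in adipose tissue and 6.55 and 6.49 in liver, where only the normal-diet channel was well above background. The normal-diet adipose pool was thus the brightest by far and the high-fat adipose pool still lay above both liver pools. Mouse trypsinogen genes are very similar in sequence, so this probe can also report their transcripts.

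Ctrb1 encodes chymotrypsinogen B, which cuts proteins after aromatic residues once activated. Its signals were 559 and 645 in the normal-diet and high-fat adipose pools and 238 and 422 in the liver pools, and its log2 levels were 10.05, 8.08, 8.55 and 8.65 in that order. The adipose ratio was -1.97 (scanner error 0.30). The high-fat adipose pool was the lowest of the 4 for this probe, so that the liver pools lay between the adipose pools. Cpa1, carboxypeptidase A1, which removes residues from the carboxyl end of peptides, had log2 levels of 10.61 and 8.46 in the adipose pools and 6.55 and 6.48 in the liver pools, a ratio of -2.16 (error 0.30) in adipose tissue.

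The 3 elastases, serine proteases of the chymotrypsin fold, lay apart from one another. Cela3b had log2 levels of 9.25 in the normal-diet and 7.02 in the high-fat adipose pool, a ratio of -2.22 (error 0.34), and was not well above background in either liver pool. Cela2a was at 8.21 and 6.96 in the adipose pools, a ratio of -1.25 (error 0.28). Cela1 was at 8.54 and 8.63, a ratio of 0.09 that is smaller than its error of 0.21. The adipose pools thus overlapped within error for Cela1 alone among the 10 genes, although its probe was well above background in both of them (signals of 205 and 947 over local backgrounds of 28 and 45) and in neither liver pool. Cela1 is named with the pancreatic elastases but, unlike most enzymes of the set, is also transcribed in several other tissues. As a group, 4 of the 5 serine proteases were at least 2-fold lower (5.13% of all genes) and 2 at least 4-fold lower (2.16%).

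The genes of fat digestion were all lower in the high-fat adipose pool. Pnlip, pancreatic triglyceride lipase, had signals of 679 and 489.5 in the adipose pools and 57 and 57 in the liver pools, with log2 levels of 10.32 and 7.68 in adipose tissue. Its ratio was -2.64 (error 0.35), and neither liver pool was well above background. Clps encodes colipase, the small cofactor that anchors this lipase on bile-salt-coated fat droplets. Its probes had log2 levels of 14.64 and 12.17, and of 12.56 and 9.97, in the normal-diet and high-fat adipose pools. Their ratios were -2.47 (error 0.31) and -2.59 (error 0.32), a difference smaller than either error. On the liver array the brighter probe was at 8.03 and 8.001 and the other was not well above background. Cel, the bile-salt-dependent carboxyl ester lipase, had signals of 276.5 and 572 in the adipose pools and 101 and 148 in the liver pools. Its adipose ratio of -1.004 (error 0.24) was the smallest of the 9 and lay at the 2-fold threshold itself.

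Sycn encodes syncollin, a protein of the zymogen granule rather than an enzyme. Its signals were 1412 and 1015 in the adipose pools and 117 and 135.5 in the liver pools, and its log2 levels were 11.53, 8.73, 7.48 and 7.25. The adipose ratio was -2.79 (error 0.35), next to that of Try4, and the liver ratio was -0.23 (error 0.23). Both liver pools lay below both adipose pools for Sycn.

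On the liver array 4 of the 10 genes were measured in both channels, 3 in 1 channel and 3 in neither. None of the 4 passed 2-fold in either direction. Of all 13640 genes, 0.579% were lower and 0.491% higher by this rule, and 0.044% were lower by 4-fold or more. The ratios were 0.13 for Cel, 0.10 for Ctrb1, -0.02 for Clps and -0.23 for Sycn, each smaller than its scanner error of 0.21 to 0.24. Of the genes measured in 1 channel, Try4 and Cpa1 had bounds of 1.04-fold and 1.05-fold lower. Their log2 ratios, -0.06 (error 0.66) and -0.07 (error 0.49), were smaller than their scanner errors, so no direction can be read from them. Cela2a was well above background in the high-fat liver pool alone, with a signal of 153 over 48 against 56 over 29. Its bound was 1.96-fold higher, from a log2 ratio of 0.97 with a scanner error of 0.57. A bound takes the bright channel over the higher of the dim channel's own level and the lowest level of any probe well above background there, and it is open to dye bias without swaps. The diet ratios of the 4 genes measured in liver were thus not distinguishable from 0 at the scanner error.

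Within each probe, the level in adipose tissue was set against that in liver for the same diet, with a dim liver channel taken at no less than the lowest level well above background. Such differences hold only if both arrays share 1 distribution of brightness, which the scaling step imposes. On the normal diet every probe was higher in adipose tissue, by at least 82.5-fold and by 97.8-fold for the probes of Clps, 38.4-fold for Try4, at least 17.5-fold for Pnlip, 16.7-fold for Cpa1 and 16.5-fold for Sycn. The smallest differences were 2.84-fold for Ctrb1 and 2.99-fold for Cel. On the high-fat diet the probes of Clps were 18-fold and at least 12.1-fold higher in adipose tissue than in liver, Try4 at least 5.08-fold, Cela1 at least 4.33-fold and Cpa1 at least 3.94-fold. In all, 10 of 11 probes were brightest in the normal-diet adipose pool (Cela1 was the exception, in the high-fat pool), and 9 of 11 were brighter in the high-fat adipose pool than in both liver pools, Ctrb1 and Cela2a being the exceptions.

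**Figure D2:**
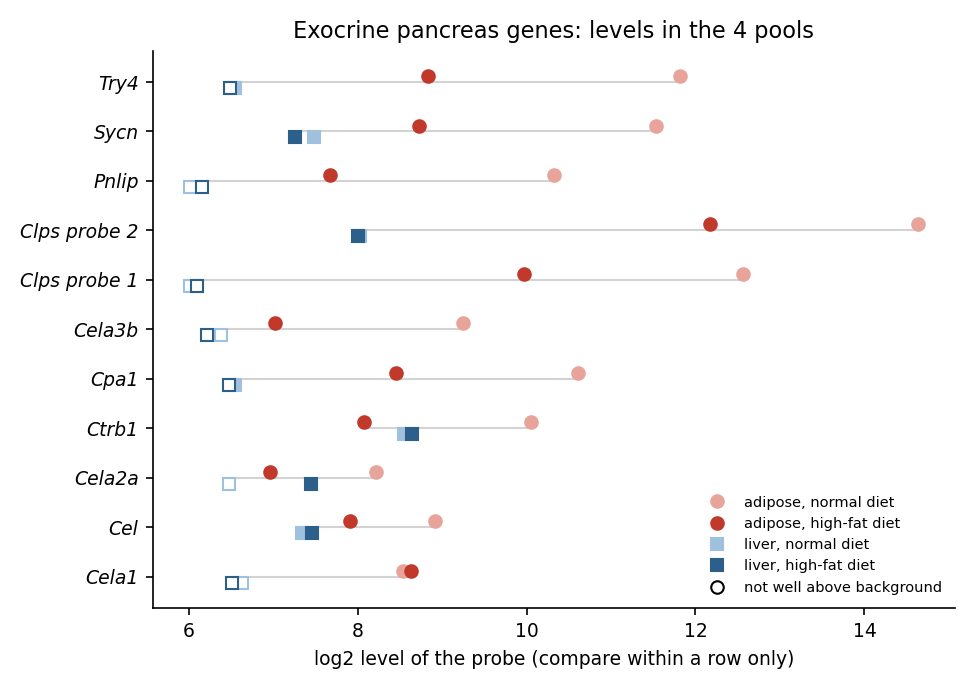
Normalized log2 level (x axis) of each probe (rows) in the normal-diet and high-fat adipose pools (light and dark red circles) and liver pools (light and dark blue squares), with open symbols where the channel was not well above background; levels are compared within a row only. For 10 of 11 probes the normal-diet adipose pool is the farthest to the right, and for Cela1 both adipose pools lie together at 8.54 and 8.63.

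Summed over the 10 genes on the linear scale, the level was 24626 in the normal-diet adipose pool and 4752 in the high-fat adipose pool, 5.18-fold lower, and 1369 and 1454 in the liver pools. Without Clps, the gene with the largest sum, the adipose sums were 12220 and 2602, 4.70-fold lower. The difference is about as large without this gene.

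Other genes of the exocrine pancreas lay on both sides of 0. Of 36 listed, 30 had a probe, and 21 were measured in both adipose channels, of which 9 were lower by at least 2-fold (5.13% of all genes), 4 higher (4.23%) and 8 within 2-fold, with a median of -0.78. That median depends on the processing: it was -1.97 with the software's log ratio (12 of 21 lower), -1.24 with an offset of 10 and -0.35 over 30 genes without a filter on dim probes. The lowest were the trypsinogens Try5 (-2.88) and Prss2 (-2.18), the carboxypeptidase Cpb1 (-1.91), the pancreatic amylase Amy2a5 (-1.87), the lipase-related Pnliprp1 (-1.54) and the secreted lectin Reg1 (-1.46). The probes of Amy2a5 disagreed, 1 at -2.94 and 1 at -0.80, and salivary and pancreatic amylase genes are very similar in sequence. The highest were the trypsin inhibitor Spink1 (5.01), the granule lectin Zg16 (3.97) and the nuclease Dnase1 (3.34). Spink1 and Zg16 are also made in the gut, and the list of small intestine genes was higher in the same pool. The source of the Spink1 and Zg16 transcripts was not tested. Without a test, these values are a description, and the list was written with results of these data known. The 4 transcription factors of acinar cells on the list went different ways. Ptf1a was not well above background in either adipose channel. Bhlha15 was well above background in the high-fat adipose pool alone, with a bound of 1.59-fold higher (log2 ratio 0.67, error 0.40). Rbpjl was at -0.78 (error 0.29) and Nr5a2 at 0.98 (error 0.23). The Nr5a2 probe was brighter in the liver pools (log2 levels 12.26 and 12.32) than in the adipose pools (8.46 and 9.44), so it is not particular to acinar cells. A second Nr5a2 probe was not well above background in either adipose channel. In liver, 9 of these genes were measured and none passed 2-fold, the share of all genes being 0.579% lower and 0.491% higher. Another 3 were well above background in 1 liver channel only. Their bounds were 2.13-fold higher for Gp2 (log2 error 0.56), 1.57-fold higher for Zg16 (0.35) and 1.08-fold lower for Try5 (0.58). A second Gp2 probe was not well above background in either liver channel.

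Markers of pancreatic islets, which lie within the exocrine tissue and make hormones, did not share the lower ratios. Of 23 listed, 10 were measured in both adipose channels, with a median of 0.37. None was at least 2-fold lower (5.13% of all genes), 2 were higher (4.23%) and 8 were within 2-fold. Chga (2.16) and Chgb (1.73), granins of secretory granules in many endocrine cells, were the highest, and the insulin gene Ins1 was at 0.67. Another 8, G6pc2, Neurod1, Pax6, Pdx1, Ppy, Ptprn, Slc30a8 and Ucn3, were not well above background in either adipose channel. Many of the measured markers were dim. Chga and Ins1 were at log2 levels of 7.04 and 7.63 in the normal-diet adipose pool, where the lowest level well above background was 6.26. The summed level of the islet list was 3328 in the normal-diet and 5204 in the high-fat adipose pool. This sum also counts genes not well above background. Its largest measured term was Mafa (log2 levels 9.90 and 10.20), which was at 10.74 and 10.90 in the liver pools.

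Markers of other organs also differed between the adipose pools. Beside the counts below, 5.13% of all genes on this array were at least 2-fold lower and 4.23% at least 2-fold higher. Of 20 hepatocyte genes measured, 16 were at least 2-fold lower in the high-fat pool, none higher, with a median of -4.15 and summed levels of 387634 (normal diet) and 154430 (high fat). Ambp (-5.59), Fgg (-5.32) and Mup3 (-5.19) were the farthest from 0. Most of either sum came from Trf (-0.78) and Cyp2e1 (-0.93), which were within 2-fold, so the sums say little about the other genes of the list. Of 9 measured genes of the male reproductive tract, 8 were lower (median -2.98, sums 108713 and 10782), among them the sperm genes Tnp2 (-4.27) and Prm2 (-3.76) and the epididymal Defb42 (-3.52). Of 8 measured skeletal muscle genes, 5 were lower (median -1.48, sums 20023 and 5964), among them Tnnc2 (-3.29), Myh4 (-3.19) and Ckm (-1.85). The muscle list was lower on the liver array too, where 8 of 11 measured genes passed 2-fold downward (median -1.43), beside 0.579% of all genes there. In the opposite direction, all 28 small intestine genes measured on the adipose array were at least 2-fold higher (median 3.77, sums 78116 and 1075904), led by Fabp2 (6.42), Reg3b (6.36) and Sis (5.76). The adipocyte list had a median of 0.18 and sums of 1263083 and 1150787, with Cfd (-1.70) lower, Lep (1.66) higher and Agpat2 at 0.81, which is within 2-fold. The part of these other tissues in the ratios of the pancreas genes was not tested.

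**Figure D3:**
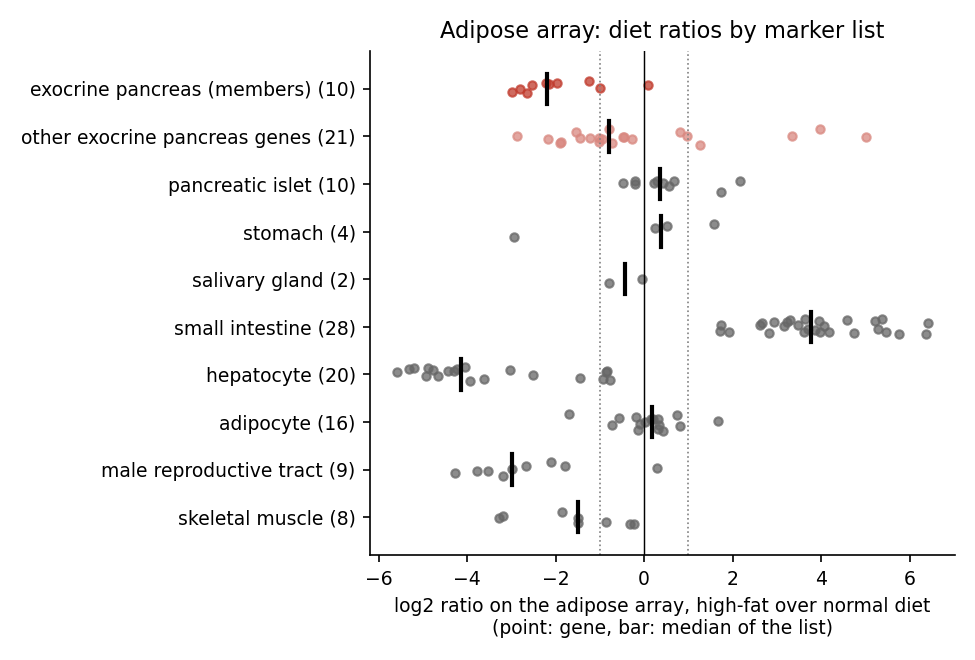
Log2 diet ratio of the adipose pools, high fat over normal diet (x axis) for the measured genes of each marker list (points; number measured in brackets), with the list's median as a black bar and dotted lines at 2-fold. The pancreas genes of this report (top row, median -2.19) lie to the left with hepatocyte (-4.15) and male reproductive tract genes (-2.98), while small intestine genes (3.77) lie to the right and adipocyte genes (0.18) around 0.

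The genes whose pattern over the 4 pools was most like the mean of the 10 were found from log2 levels centred on each gene's own mean, by the root mean square difference over the 4 pools. The mean profile was 2.16 in the normal-diet and 0.21 in the high-fat adipose pool and -1.22 and -1.15 in the liver pools. Among 14304 other genes the nearest were Ly6f (difference 0.07), Tekt1 (0.10), P2rx1 (0.12), Prx (0.12), 1700009N14Rik (0.13), Ptprz1 (0.14), Cela3a (0.17) and Odf2 (0.19). Of these, Cela3a, a close relative of Cela3b, is an elastase of the pancreas, whereas Tekt1 and Odf2 encode structural proteins of sperm tails and cilia. Genes had to be measured only in the adipose channels, so a liver level can lie at background. Ly6f, Tekt1, Prx, 1700009N14Rik and Ptprz1 had no measured liver ratio, and only 4 of the 10 pancreas genes had one. The members themselves lay between 0.30 (Cela3b) and 1.48 (Clps) from their mean, farther than these 8 genes. Of the 21 measured genes on the list of other pancreas genes, which does not hold Cela3a, the nearest were Prss2 (0.31, rank 44) and Cpb1 (0.35, rank 58).

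The direction of the adipose ratios did not change under any of 8 other ways of processing. The ratio of Try4 ranged from -3.21 to -2.04, that of Sycn from -3.02 to -1.88, that of Pnlip from -3.04 to -1.86 and that of Clps from -2.60 to -1.48. Cela1 ranged from 0.02 to 0.79. Centring each array on its median in place of a loess curve gave the highest ratio for each of the 10 genes. With that choice the median of all measured adipose genes was 0.69, and 87.2% of the genes past 2-fold were higher (45.1% as reported). The median of the 10 was then -1.39, with Cel at -0.34 and Cela2a at -0.90. At least 2-fold lower were 7 of the 10, beside 616 of all 14315 genes. Relative to the median of all genes the 10 were then at -2.08, beside -2.18 as reported.

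**Figure D4:**
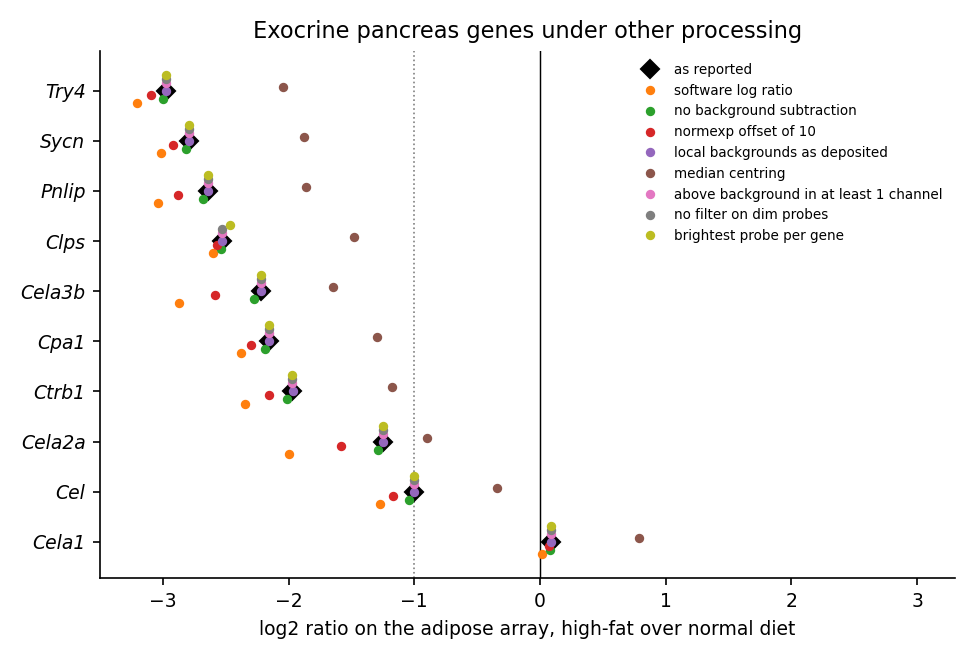
Log2 ratio of each of the 10 genes on the adipose array (x axis) as reported (black diamonds) and under 8 other ways of processing (coloured points); the dotted line marks 2-fold lower. Points lie to the left of 0 for 9 genes under every setting, and the points of median centring lie farthest to the right.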

How the data were processed

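Gene expression was measured on 2 Agilent arrays, 1 per tissue, with both diets on each array. The deposited median intensity of each spot and of its local background is not normalized. The deposited log10 ratio, Cy5 over Cy3, had already been background-subtracted and dye-normalized by the scanner software and carries an error on the same scale. That software was Agilent Feature Extraction 11.5.1.1 with protocol GE2_1105_Oct12, per the file headers. A different version, 8.5.1.1, stands in the submitters' processing notes.

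The normexp correction of limma 3.58.1 (R 4.3.3) was run with an offset of 50 after local backgrounds marked as outliers (1480 high-fat and 406 normal-diet spots in adipose tissue, 1602 and 665 in liver) had been set to their channel's median on that array. Loess within each array gave control spots no weight, and levels were scaled between arrays with Aquantile. Spots marked as outliers were left out (213 in adipose tissue, 184 in liver), and no spot was saturated. Spots of a probe, then measured probes of a gene, were averaged as log2 values. A gene was measured when both channels of a probe were well above background, and was called at 2-fold. The scanner error was turned from log10 to log2. Names came from RefSeq accessions of GRCm38.p6, while the array's annotation is of mm9. The steps were also run on simulated data, with changes placed only in bright genes and the same background flags given to both channels. The simulation therefore does not cover dim genes or unequal channels.

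Named were all 10 genes, the 6 lowest and 3 highest other pancreas genes, the 3 genes farthest from 0 in each other list and the 8 nearest in pattern. Rbpjl, Ptf1a, Bhlha15, Nr5a2, Pgc, Trf, Cyp2e1, Mafa and the markers listed as not above background were named after their values were seen. The 10 genes and the lists were chosen with earlier results of these data known. The 8 alternatives changed the ratio (the software's), the background (none subtracted, an offset of 10, local backgrounds as deposited), the normalization (median centring), the filter (1 channel above background, none) or the probe (the brightest of a gene).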

Additional observations from a re-analysis of the deposited data

Results flagged for a closer look

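For 2 of the 4 genes measured on both arrays the diet ratio had opposite signs in the 2 tissues, with a 2-fold difference in adipose tissue. Ctrb1 was at -1.97 in adipose tissue and 0.10 in liver, a difference of -2.07. Cel was at -1.004 and 0.13, a difference of -1.13, and its adipose ratio no longer passed 2-fold with median centring (-0.34). Both liver ratios are smaller than their scanner errors (0.21 and 0.24), so their signs carry little weight. The difference between tissues was not tested, since each tissue has 1 array. Sycn (-2.79 in adipose tissue and -0.23 in liver) and Clps (-2.53 and -0.02) kept 1 sign. Their ratios lay farther apart between the tissues than those of Ctrb1 and Cel.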

How the results depend on the processing

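With 1 array per tissue no array could be left out, and no paired analysis was possible because there are no replicates. A ratio or a median was taken as moved when it changed by more than the scanner error. Counts have no such error. The 9 of 10 pancreas genes at least 2-fold lower in adipose tissue were 9 under 7 alternatives and 7 with median centring, where the median went from -2.19 to -1.39. No measured gene of the 10 was at least 2-fold lower in liver under any of the 8 alternatives. The median of the other pancreas genes in adipose tissue (-0.78) was -1.97 with the software's log ratio, -1.24 with an offset of 10 and -0.35 without a filter on dim probes, which brings in 9 genes not measured in both channels. The count of all genes at least 2-fold lower was 1230 with the software's log ratio in adipose tissue (735 as reported). In liver (79 as reported) it was 156 with the software's log ratio, 35 with local backgrounds as deposited and 28 with median centring, and the share of 2-fold genes that were higher there was 94.1% with median centring, 59.5% when 1 channel above background was enough and 56.9% without a filter (45.9% as reported). The cause of these shifts was not tested. No ratio or median past 2-fold changed sign. The liver median of the 10 genes, close to 0 as reported (0.04), was -0.02 when 1 channel above background was enough and -0.01 without a filter, and liver Clps went from -0.02 to 0.18 with median centring. Of the genes past 2-fold, more were lower than higher as reported (735 and 605 in adipose tissue, 79 and 67 in liver), but more were higher with median centring (616 and 4208 in adipose tissue, 28 and 445 in liver) and, in liver, when 1 channel was enough (79 and 116) or without a filter (78 and 103). Brightness limits the liver ratios, since 6 of the 10 genes were not well above background in both channels there.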

Other observations

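Lists of 2 further organs were measured too sparsely to describe as groups. Of 16 stomach genes, 4 were measured in both adipose channels: Tff2, a trefoil peptide of mucus, at -2.95, Lipf, gastric lipase, at 1.58, Gkn3 at 0.51 and Pgc at 0.25. Another 6, among them Atp4a of the acid pump and Cblif, the intrinsic factor, were not well above background in either adipose channel. The summed level of the stomach list was 1540 in the normal-diet and 1548 in the high-fat adipose pool. Of 10 salivary gland genes, Amy1, salivary amylase, was at -0.79 and Prb1 at -0.05. Amy1 had log2 levels of 14.93 and 14.13 in the adipose pools and 14.17 in both liver pools, a ratio close to that of the dimmer Amy2a5 probe (-0.80) and far from that of the brighter one (-2.94).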
